A study of Mus musculus with 64 samples.

Results

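The Gimap genes encode GTPases of the immunity-associated protein family, a set of small guanine nucleotide-binding proteins made almost entirely in lymphocytes. The members are encoded side by side on mouse chromosome 6. The 8 genes described here, Gimap1, Gimap3, Gimap4, Gimap5, Gimap6, Gimap7, Gimap8 and Gimap9, were taken by name from the 55809 gene names of the count files. They were followed across regulatory T (Treg) cells in which Foxp3 protein was degraded, across Treg 'wannabe' cells in which Foxp3 was switched on, and across ordinary Foxp3GFP Treg cells. The cluster was chosen by a measured value: at day 28 of Foxp3 restoration, Gimap6 responded differently in active and in resting cells. Day 28 values are therefore given for all 8 genes as a description without a test.

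GIMAP proteins sit, through short hydrophobic tails or through partners, on membranes such as those of lysosomes, mitochondria and the Golgi. They are best known for keeping resting lymphocytes alive: loss of Gimap5 shortens the life of peripheral T cells in mice and rats, and loss of Gimap1 depletes mature T and B cells. Gimap6 binds an ATG8-family protein of the autophagy machinery, Gimap3 is a close relative of Gimap5, and Gimap4 has been tied to the timing of T cell death.

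In the degradation arm, the Foxp3 gene of the mice encoded a protein tagged with an auxin-inducible degron (Foxp3-AID) and also drove ZsGreen and iCre, plus either ROSA26-TIR1 (the F74G form, freed from its stop cassette by that Cre, so made only in cells that have used Foxp3) or ROSA26-WT. All received the degrader ligand 5-ph-IAA for 7 days, controls included. The adult donors were females heterozygous for the X-linked Foxp3-AID allele and so also held unmodified Treg cells. Their nascent ZsGreen+ CD73- thymic Treg cells and their active Treg cells from spleen and lymph nodes gave 3 libraries per genotype each. Infant spleen and lymph node Treg cells gave 4 per genotype title. For its neonatal experiments the study used hemizygous Foxp3-AID males and began dosing on the day after birth. In neonates it reports severe autoimmune disease upon Foxp3 degradation, unlike in adults. In the restoration arm, called KIKO in the labels, a stop cassette with Thy1.1 in Foxp3-LSL mice kept Foxp3 silent until tamoxifen-activated, Cd4-driven CreERT2 removed it. Thy1.1+ cells of Foxp3-LSL mice without the Cre (minusFoxp3) and cells of Cre carriers (plusFoxp3, GFP+ after recombination) were sorted as resting or active at days 3, 7, 14 and 28 after 4-hydroxytamoxifen, or untreated at day 0. These donors were also heterozygous females, so Foxp3-sufficient Treg cells were present around the sorted cells. Untreated Foxp3GFP mice gave resting and active Treg cells, and each of these 22 groups had 2 libraries. The labels do not tie libraries to animals. The study describes the replicates of the restoration experiment and of the adult thymic and active degradation experiments as independent biological ones. The p-values here measure the spread between libraries.

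Libraries held 27753211 to 57419138 counted read pairs, and every member was counted in each of the 64 libraries with at least 1990 pairs, so depth did not limit detection of any member. Cd44, Icos and Klrg1, markers of activated T cells, summed to 128 to 682 CPM (a gene's share of all counted read pairs, scaled to one fixed library size) in the resting and 805 to 1734 CPM in the active KIKO and Foxp3GFP libraries, without overlap. T cell markers summed to 2541 to 7539 CPM and markers of CD8 and NK cells to 19.3 to 196 CPM, the highest in 1 active day 28 plusFoxp3 library. Markers of B cells stayed at or under 21.1 CPM and of myeloid cells at or under 18.8 CPM in all libraries. The endothelial list reached 247 CPM, nearly all of it Pecam1, which T cells also express. Foxp3 transcript, the check of the restoration, lay between 44.3 and 81.5 CPM in minusFoxp3 and between 426 and 615 CPM in treated plusFoxp3 libraries. The 12 adult degradation files name, inside, a library of the other genotype than the sample they are attached to. They were assigned by that internal library name, and under the recorded attachment every sign between TIR1 and WT turns. Degradation acts on protein, so transcripts check these labels only indirectly. With the internal names, Foxp3 transcript was at 76.7 to 93.4 CPM in active TIR1 and 100 to 127 CPM in active WT libraries, and overlapped in thymic ones (144 to 168 and 144 to 181 CPM). Summed Treg markers (Foxp3, Il2ra, Ikzf2 and Ctla4) were at 1454 to 1621 CPM in TIR1 and 1739 to 1894 CPM in WT active libraries, without overlap. In thymic libraries they were at 1304 to 1485.5 CPM in TIR1 and 1488.3 to 1585 CPM in WT, so the ranges nearly touched. How many of all genes separate in this way was not counted. For infants, the titles and library names give the opposite genotype to the genotype field, and those groups are called by their titles.

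The 8 genes lie within 123618 bases of chromosome 6 (GRCm39, 48624168 to 48747785) with 5 other annotated features among them. In genome order they are Gimap8 (48624168 to 48637809, plus strand), Gimap9 (48653063 to 48656048, plus), Gimap4 (48661483 to 48668994, plus), Gimap6 (48678516 to 48685159, minus), Gimap7 (48695555 to 48701570, plus), Gimap1 (48715988 to 48720729, plus), Gimap5 (48723131 to 48731144, plus) and Gimap3 (48741398 to 48747785, minus). Of the 3073 exonic bases of Gimap1, 1107 also belong to other features, chiefly the antisense gene Gimap1os, and read pairs there were dropped by the unstranded counting, so the level of Gimap1 is understated. Gimap3 and Gimap5 share sequence: 8.15% of the exonic stretches of 50 bases in Gimap3 occur in another member, and 4.75% of those in Gimap5, which makes the split of reads between this pair somewhat uncertain.

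The 300-base windows around the start sites are shown for the 4 members that passed the threshold on Foxp3 restoration in active cells, below. They come from RefSeq (GRCm38.p6), which held a window for all 8 members and a second one for Gimap8, and run 5′ to 3′ along the gene, 250 bases before the start and 50 after. Capitals mark matches, on either strand, to 7 short motifs: forkhead TGTTTAC and TGTTTGC, ETS ACTTCCT, RUNX TGTGGT, TCF CTTTGAA, KLF CCACCC and STAT TTCNNNGAA.
Gimap6, chr6:48708195-48708494, minus strand: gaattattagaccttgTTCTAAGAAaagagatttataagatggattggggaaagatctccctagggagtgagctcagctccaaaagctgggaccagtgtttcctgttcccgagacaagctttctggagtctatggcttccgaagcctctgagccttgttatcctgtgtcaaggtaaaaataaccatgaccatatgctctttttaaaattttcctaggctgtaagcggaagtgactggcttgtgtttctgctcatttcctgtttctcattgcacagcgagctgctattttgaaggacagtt
Gimap7, chr6:48718371-48718670, plus strand: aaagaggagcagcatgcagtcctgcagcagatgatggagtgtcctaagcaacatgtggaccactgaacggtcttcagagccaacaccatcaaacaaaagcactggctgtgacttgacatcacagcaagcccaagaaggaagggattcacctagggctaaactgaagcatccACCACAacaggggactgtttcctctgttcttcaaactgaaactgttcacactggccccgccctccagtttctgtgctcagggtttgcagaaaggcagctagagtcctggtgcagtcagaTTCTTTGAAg
Gimap4, chr6:48684328-48684627, plus strand: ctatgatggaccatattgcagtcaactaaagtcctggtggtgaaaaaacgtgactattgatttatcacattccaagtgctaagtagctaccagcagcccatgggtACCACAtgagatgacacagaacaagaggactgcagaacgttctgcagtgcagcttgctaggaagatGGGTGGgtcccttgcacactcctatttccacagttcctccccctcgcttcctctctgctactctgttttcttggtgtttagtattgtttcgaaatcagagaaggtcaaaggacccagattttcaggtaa
Gimap3, chr6:48770802-48771101, minus strand: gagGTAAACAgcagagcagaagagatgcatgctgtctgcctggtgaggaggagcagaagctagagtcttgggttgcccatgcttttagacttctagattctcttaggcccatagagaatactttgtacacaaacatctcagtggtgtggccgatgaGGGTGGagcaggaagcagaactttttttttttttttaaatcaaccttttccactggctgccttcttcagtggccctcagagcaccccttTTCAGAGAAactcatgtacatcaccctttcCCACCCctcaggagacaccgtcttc
The STAT pattern was found in windows of 4 members (Gimap3, Gimap6, Gimap7 and Gimap8), where 8.3% of all 32851 windows held it. In Gimap7 it overlaps the TCF match near the end of the window. A forkhead match (TGTTTAC, 3.65% of all windows) occurred in Gimap3 alone, 247 bases before the start, and TGTTTGC (5.07%) in none of the members. The ETS motif (9.35%) was in Gimap1, Gimap5 and Gimap9, the RUNX motif (16.8%) in Gimap1, Gimap4 and Gimap7, the TCF motif (5.14%) in Gimap7, and the KLF motif (31.5%) in Gimap3, Gimap4, Gimap5, Gimap8 and Gimap9. Gimap6, with the clearest state-dependent response below, held a single match, to the STAT pattern, 234 bases before its start. These matches describe letters in a window and are not evidence of binding.

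Per kilobase of exon, Gimap4 was the most abundant member (median over the 64 libraries 684 CPM per kb), then Gimap3 (599) and Gimap6 (271). Gimap9 (149) and Gimap1 (148), at nearly the same level, followed, then Gimap7 (97.4). Gimap8 (35.6) and Gimap5 (33.6) were lowest and, given their ranges of 19.4 to 51.5 and 20.0 to 55.4 CPM per kb, were not separated. Together the 8 genes took 0.273% to 0.737% of all counted read pairs. The highest shares were in thymic WT Treg cells (0.688% to 0.737%) and the lowest in active minusFoxp3 cells (0.273% to 0.379%). These come from different experiments, counted with and without a mapping quality limit, so the ranking across them was not tested.

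**Figure D1:**
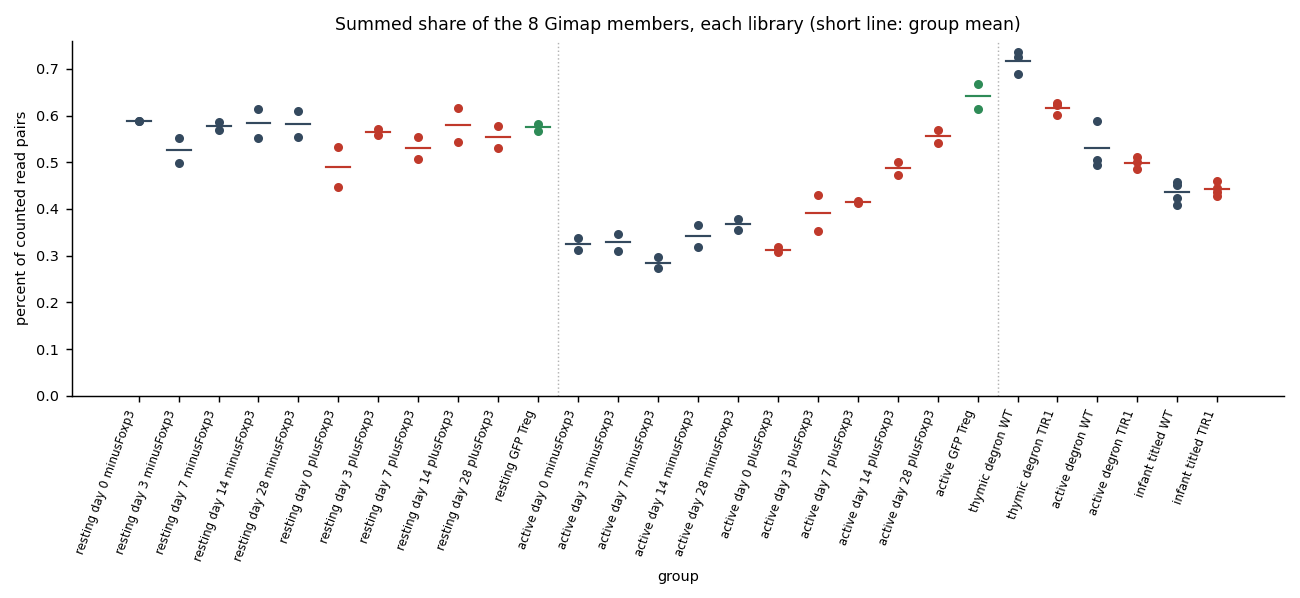
Summed share of the 8 Gimap genes among all counted read pairs (percent, vertical axis) for each library, by group (horizontal axis); points are libraries and short lines group means, dark for minusFoxp3 or WT, red for plusFoxp3 or TIR1, green for Foxp3GFP Treg. Active minusFoxp3 cells sit between 0.273% and 0.379%. Active plusFoxp3 cells go from 0.307% and 0.319% at day 0 to 0.474% and 0.500% at day 14. Resting plusFoxp3 cells are at 0.447% and 0.532% at day 0 and at 0.543% and 0.616% at day 14. Day 28, with active plusFoxp3 cells at 0.541% and 0.570%, chose the cluster and was not tested.

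Cells without Foxp3 held much less of most Gimap transcripts when active than when resting. Averaged over days 0, 3, 7 and 14 (8 libraries against 8), 7 of the 8 members were lower in active minusFoxp3 cells, where 34.9% of the 20790 genes tested passed in either direction. In bulk libraries, fewer cells with a transcript and less of it in each cell cannot be told apart. Gimap6 was lowest relative to resting cells, with a log2 difference of -1.31 ± 0.06 (SE; adjusted p = 1.71e-15 in edgeR's quasi-likelihood test). Its 8 active libraries lay between 428 and 604 CPM and its 8 resting libraries between 1148 and 1334 CPM, with no overlap. Gimap4 (-0.91 ± 0.11) and Gimap3 (-0.87 ± 0.08) followed. Gimap7 (-0.62 ± 0.08), Gimap9 (-0.54 ± 0.08), Gimap8 (-0.46 ± 0.10) and Gimap5 (-0.33 ± 0.07) moved less on the log2 scale. Gimap4, Gimap3, Gimap7 and Gimap9 also did not overlap between states, whereas Gimap8, Gimap5 and Gimap1 did. The share of all genes without overlap was not counted here or in any later contrast, so such separations have no baseline. Gimap1 did not pass (-0.07 ± 0.09, adjusted p = 0.599), with 390 to 601 CPM in active and 402 to 560 CPM in resting cells. The median member difference was -0.58, against -0.03 over all genes tested. The endothelial list moved with this contrast through Pecam1, at 55.4 to 91.4 CPM in active and 81.9 to 213 CPM in resting libraries, while Cdh5 stayed at or under 0.798 CPM and Kdr at or under 7.16 CPM in these libraries. Its part in the difference was not tested.

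Of 11 genes of T cell quiescence and homing, which share the resting state with high Gimap levels, 10 were lower in these active cells and 1 was higher. Lef1 (-3.35 ± 0.10), a factor of naive T cells, Satb1 (-2.56 ± 0.14), a chromatin organiser, and Ccr7 (-1.85 ± 0.13), the lymph node homing receptor, had the smallest adjusted p among them. Il7r, the IL-7 receptor chain, was the one that was higher (1.25 ± 0.22), a gene named here after its value was seen.

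In Foxp3GFP Treg cells the same contrast was small. No member passed in edgeR (3.12% of genes did), and DESeq2 called 1, Gimap5, among 5.58% of genes. An unadjusted p under 0.05 was found for 3 members and for 3045 of the 20790 genes tested. Gimap6 stood at 1095 and 1111 CPM in active and 931 and 1004 CPM in resting Treg cells, a log2 difference of 0.17 ± 0.12 (adjusted p = 0.559). Gimap3 was at 2237 and 1981 CPM in active and 1866 and 1872 CPM in resting cells. In these Treg cells 8 of the 11 quiescence and homing genes were still lower in the active state, with S1pr1 at -1.69 ± 0.25, Foxp1 at -0.84 ± 0.13 and Bach2 at -1.46 ± 0.25.

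With Foxp3 restored, 4 members rose in active cells: Gimap7, Gimap4, Gimap6 and Gimap3. The test averaged the plusFoxp3 minus minusFoxp3 difference over days 3, 7 and 14 (6 libraries against 6), a contrast without the day 28 libraries by which the cluster was chosen. Those libraries entered only the estimate of the spread, and a fit without them also called 4 members. The minusFoxp3 libraries of these days also entered the comparison of active with resting cells above. All 8 members had a positive log2 difference with a median of 0.36, against -0.00 over all genes, and 3.18% of the 20776 genes tested passed.

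Gimap7, whose GTPase activity depends on pairing of its molecules, rose most, by a log2 difference of 0.92 ± 0.10 (1.90-fold, adjusted p = 3.85e-05). Its plusFoxp3 levels were 257 and 184 CPM at day 3, 248 and 270 CPM at day 7, and 355 and 417 CPM at day 14. The minusFoxp3 libraries of the same days held 144 and 129, 152 and 132, and 197 and 160 CPM. At each day both plusFoxp3 libraries were above both minusFoxp3 libraries, and the ratio of means was 1.62 at day 3, 1.82 at day 7 and 2.16 at day 14.

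Gimap4 rose by 0.71 ± 0.08 on the log2 scale (1.64-fold, adjusted p = 5.94e-05). Its plusFoxp3 libraries held 1074 and 888 CPM at day 3, 979 and 1010 CPM at day 7, and 1206 and 1192 CPM at day 14. Its minusFoxp3 libraries held 668 and 657, 583 and 616, and 802 and 640 CPM. Gimap4 was the one member whose 6 plusFoxp3 libraries all exceeded all 6 minusFoxp3 libraries. How many of all genes separate like this was not counted.

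Gimap6 rose by 0.49 ± 0.07 (1.40-fold, adjusted p = 0.000736). At day 3 the plusFoxp3 libraries held 656 and 542 CPM against 520 and 508 CPM, at day 7 654 and 653 CPM against 428 and 448 CPM, and at day 14 781 and 852 CPM against 604 and 506 CPM. The gap was thus small at day 3 and clear of the spread between libraries from day 7. Gimap3, the relative of Gimap5, rose by 0.41 ± 0.09 (1.33-fold, adjusted p = 0.0138), with 1303 and 1112, 1350 and 1315, and 1367 and 1424 CPM in plusFoxp3 cells of days 3, 7 and 14. Its minusFoxp3 libraries held 1105 and 1014, 745 and 1004, and 1139 and 1083 CPM. The Gimap3 call was lost without replicate 1 of the day 3 plusFoxp3 libraries (adjusted p = 0.0539) or of the day 7 plusFoxp3 libraries (adjusted p = 0.0647).

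The other 4 members did not pass: Gimap5 at 0.30 ± 0.09 (adjusted p = 0.0987), Gimap9 at 0.27 ± 0.08 (adjusted p = 0.0756), Gimap8 at 0.22 ± 0.11 and Gimap1 at 0.15 ± 0.09. DESeq2, which called 5.46% of all genes here, also called Gimap5 and Gimap9. With only the libraries compared, Gimap3 did not pass (0.40, adjusted p = 0.0545). Summed markers of activated T cells (Cd44, Icos and Klrg1) were also higher with Foxp3 at days 3 and 14 and overlapped at day 7. They were at 877 to 901 CPM in minusFoxp3 and 1096 to 1118 CPM in plusFoxp3 libraries at day 3, at 999 to 1306 and 1152 to 1265 CPM at day 7, and at 952 to 1057 and 1609 to 1734 CPM at day 14. Their part in the Gimap difference was not tested.

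**Figure D2:**
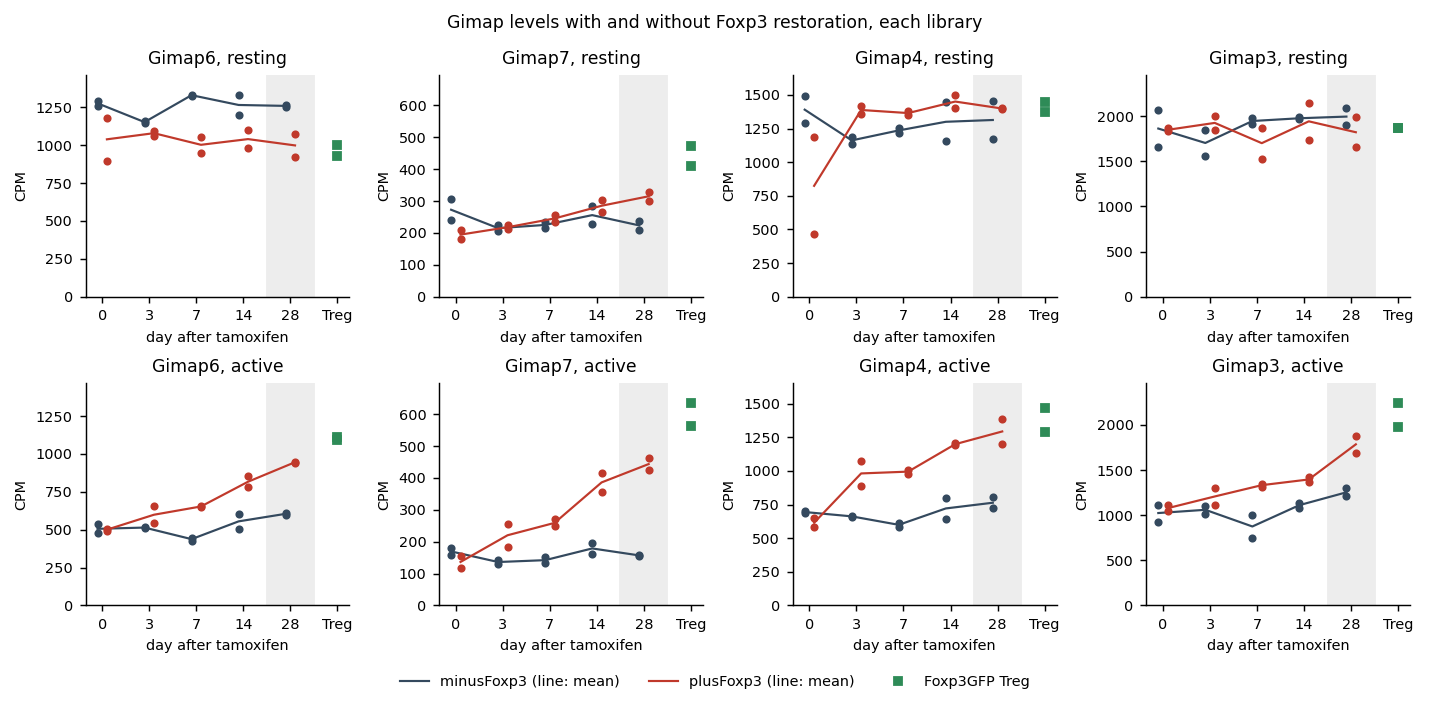
CPM (vertical axes, from 0) of Gimap6, Gimap7, Gimap4 and Gimap3 by day after tamoxifen (horizontal axes, not to scale) in resting (top) and active (bottom) cells; points are libraries, lines join the means of 2 libraries, and squares are untreated Foxp3GFP Treg cells. In active cells the plusFoxp3 lines leave the minusFoxp3 lines from day 3, and Gimap7 reaches 355 and 417 CPM at day 14; the shaded day 28 chose the cluster and was not tested.

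In resting cells Foxp3 restoration changed no member past the threshold. In edgeR 2.48% of genes passed but none of the 8, and DESeq2, which called 5.34% of genes, also called none. Of the members 1, Gimap6, had an unadjusted p under 0.05, as had 3166 of the 20520 genes tested. Gimap6 leaned the other way here, at -0.23 ± 0.08 (adjusted p = 0.159). In untreated resting day 0 cells Gimap6 already stood at -0.31 ± 0.14. Its plusFoxp3 libraries of days 3, 7 and 14 held 1064 and 1095, 950 and 1056, and 983 and 1098 CPM, all below the minusFoxp3 libraries at 1157 and 1148, 1334 and 1328, and 1330 and 1201 CPM. Gimap7 was at 0.13 ± 0.09, Gimap4 at 0.22 ± 0.15 and Gimap3 at 0.02 ± 0.09. The median over the members was 0.06.

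The difference between the states was itself tested in one fit of all 44 KIKO and Foxp3GFP libraries, where 0.462% of genes passed. Gimap6 responded more in active cells by 0.70 ± 0.10 on the log2 scale (adjusted p = 0.000408), with the fifth smallest p among 20790 genes. Gimap7 responded more in active cells by 0.77 ± 0.13 (adjusted p = 0.00392). The other members had positive differences that did not pass: Gimap4 0.48 ± 0.18 (adjusted p = 0.300), Gimap3 0.38 ± 0.12 (adjusted p = 0.210), Gimap8 0.28 ± 0.16, Gimap5 0.19 ± 0.12, Gimap1 0.14 ± 0.15 and Gimap9 0.13 ± 0.13. From single days, with 2 libraries a group, Gimap6 passed at day 7 and neither gene at day 3 or day 14. At untreated day 0 the plusFoxp3 minus minusFoxp3 difference was -0.31 in resting and -0.0033 in active cells for Gimap6. It was -0.49 and -0.30 for Gimap7 and -0.76 and -0.16 for Gimap4, while Gimap1 went the other way, at 0.17 and -0.060. The part of this day 0 offset in the state difference was not tested.

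At day 28, which chose the cluster, the state difference was 0.97 for Gimap6, 0.99 for Gimap7, 0.66 for Gimap4, 0.63 for Gimap3, 0.40 for Gimap8, 0.29 for Gimap5 and 0.27 for both Gimap1 and Gimap9. Gimap6 stood at 948 and 944 CPM in active plusFoxp3 and 598 and 612 CPM in active minusFoxp3 cells. In resting cells it stood at 925 and 1073 CPM with and 1252 and 1267 CPM without Foxp3. Gimap7 stood at 424 and 463 against 158 and 156 CPM in active cells, and at 329 and 301 against 239 and 208 CPM in resting cells. The active plusFoxp3 levels of Gimap6 thus fell within the range of the resting plusFoxp3 ones, whereas active and resting minusFoxp3 levels were far apart.

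Before tamoxifen the 2 genotypes should differ only by the Cre transgene. In active day 0 cells the 8 members lay between -0.30 (Gimap7) and 0.09 (Gimap3). None passed in edgeR (0.00481% of genes did) or DESeq2 (0.0818%), and none had an unadjusted p under 0.05, which 951 of 20776 genes had. In resting day 0 cells none passed in edgeR either (0.00487% of genes did) or in DESeq2 (0.219%). An unadjusted p under 0.05 was found for 2219 of 20520 genes and for 4 members: Gimap4 at -0.76 ± 0.27, Gimap9 at -0.57 ± 0.18, Gimap7 at -0.49 ± 0.15 and Gimap6 at -0.31 ± 0.14. One plusFoxp3 library stood apart, with Gimap4 at 463 CPM where its partner had 1185 CPM and the minusFoxp3 libraries 1490 and 1291 CPM, and without it the Gimap4 difference was -0.23. With its partner left out instead, 4 members passed and Gimap4 was at -1.61, in a fit that called 10.2% of all genes.

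Ordinary Foxp3GFP Treg cells held more of all 8 transcripts than day 0 minusFoxp3 cells in the active state, and 5 members passed (10% of genes did). Gimap7 was 3.59-fold higher (1.85 ± 0.18, adjusted p = 2.6e-06), at 634 and 564 CPM against 180 and 159 CPM. Gimap6 was 2.22-fold higher (1.15 ± 0.12, adjusted p = 8.85e-06), at 1095 and 1111 against 475 and 536 CPM. Gimap5, needed for survival of peripheral T cells, was 2.13-fold higher (1.09 ± 0.16), at 230 and 227 against 105 and 112 CPM. Gimap3 (2.10-fold) and Gimap4 (2.02-fold) also passed. Groups did not overlap for any of the 8, but with 2 libraries a group the share of all genes without overlap was not counted. Gimap8 (0.56 ± 0.19), a large member with more than one GTP-binding domain, Gimap1 (0.43 ± 0.16) and Gimap9 (0.40 ± 0.14) stayed short of the threshold. Of these, DESeq2 called Gimap9 (0.40, adjusted p = 0.0230) among 12.6% of genes. The median over the members was 1.04 against 0.00 over all genes. B cell markers were at 19.3 and 21.1 CPM in these Treg libraries and at 2.68 and 3.51 CPM in the minusFoxp3 ones, mostly from Cd22 (14.1 to 16.7 CPM), while Ms4a1 was at 0.190 and 1.43 CPM. Their part in the difference was not tested.

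In the resting state 1 member passed (2.91% of genes did). Gimap7 was 1.64-fold higher in Foxp3GFP Treg cells (0.71 ± 0.15, adjusted p = 0.0157), at 474 and 411 against 306 and 240 CPM, a call lost without replicate 2 of the minusFoxp3 libraries (adjusted p = 0.0988) or replicate 1 of the Treg libraries (adjusted p = 0.200). Gimap6 stood at 931 and 1004 CPM in Treg against 1292 and 1262 CPM in minusFoxp3 cells (-0.39 ± 0.14, adjusted p = 0.199). The state difference of this contrast, added after the results were seen, passed for 3 members where 2.43% of genes did: Gimap6 (1.51 ± 0.17, adjusted p = 4.89e-06), Gimap7 (1.11 ± 0.23, adjusted p = 0.00691) and Gimap3 (1.02 ± 0.21, adjusted p = 0.00627). It shares its day 0 minusFoxp3 and Treg libraries with the active-minus-resting contrasts above and is not separate evidence. Without one of 3 libraries, Gimap3 (active minusFoxp3 replicate 1 or resting minusFoxp3 replicate 2) or Gimap7 (resting Treg replicate 2) was lost.

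**Figure D3:**
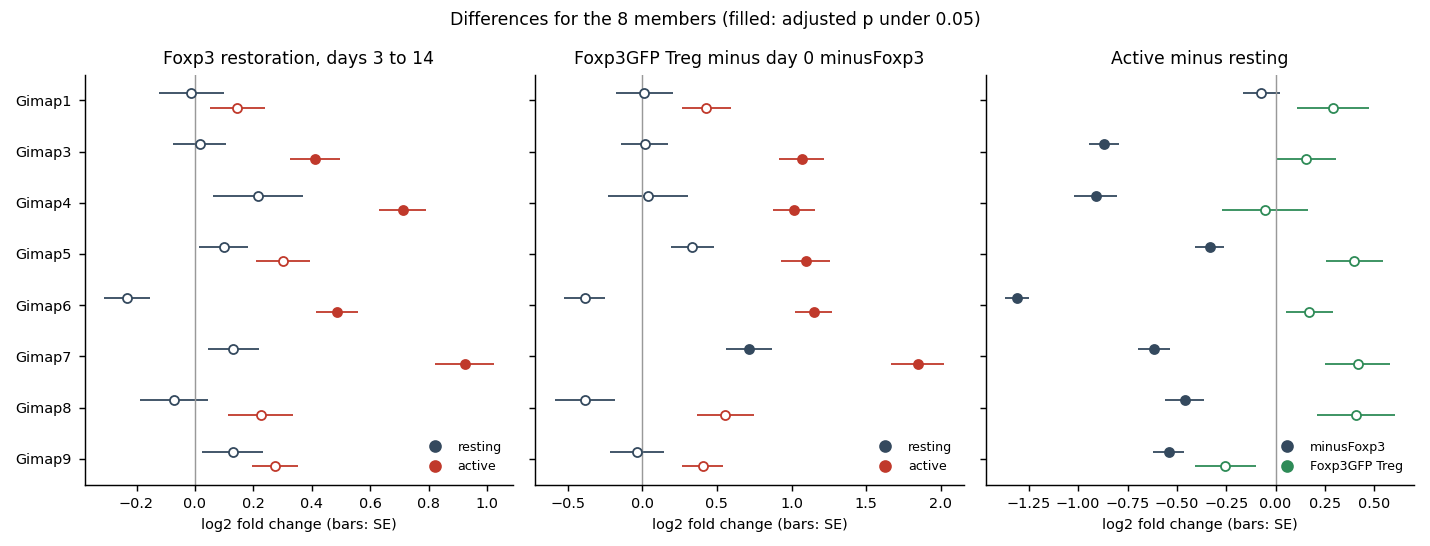
Log2 differences for the 8 members (horizontal axes; bars show 1 SE) in 3 contrasts: Foxp3 restoration over days 3, 7 and 14, Foxp3GFP Treg minus day 0 minusFoxp3 cells, and active minus resting cells; filled points have an adjusted p under 0.05. Active points (red) lie right of resting points (dark) for every member in the first 2 panels, and in the third panel minusFoxp3 points reach -1.31 (Gimap6) while Foxp3GFP Treg points stay between -0.25 and 0.42.

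After 7 days of Foxp3 degradation in thymic Treg cells, no member passed in edgeR, which called 0% of 14245 genes. An unadjusted p under 0.05 was found for 4 members and for 1050 of the 14245 genes. DESeq2 called the same 4 members, among 1.12% of genes. Gimap7 stood at 193, 184 and 215 CPM in TIR1 and 293, 311 and 299 CPM in WT libraries, a log2 difference of -0.61 ± 0.08 (adjusted p = 0.212 in edgeR and 4.82e-08 in DESeq2). Gimap5 stood at 134, 124 and 130 against 167, 163 and 163 CPM (-0.35 ± 0.08), Gimap4 at 1536, 1678 and 1750 against 2133, 2145 and 1985 CPM (-0.34 ± 0.06), and Gimap3 at 1692, 1698 and 1623 against 1932, 1998 and 1894 CPM (-0.22 ± 0.05). In these 4 genes, and in Gimap6 and Gimap9, the TIR1 and WT libraries did not overlap. The share of all genes without overlap in thymic cells was not counted, so this separation has no baseline. Gimap1 (0.01 ± 0.07) and Gimap8 (-0.01 ± 0.12) overlapped. The direction rests on the internal library names of the files.

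In active Treg cells degradation gave no call among the members in edgeR (0% of 14554 genes) or DESeq2 (0.151%). No member had an unadjusted p under 0.05, which 672 of all genes had. TIR1 and WT libraries overlapped for each of the 8. WT replicate 1 stood apart, with Gimap7 at 581 CPM where the other WT libraries had 267 and 262 CPM and TIR1 libraries had 263, 344 and 340 CPM. With it Gimap7 differed by -0.27 ± 0.31, and without it by 0.23. Gimap6 was at 963, 1084 and 938 CPM in TIR1 and 1180, 925 and 897 CPM in WT libraries.

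In infant Treg cells no member passed in edgeR (0.0185% of 16209 genes did) or in DESeq2 (6.85% did). An unadjusted p under 0.05 was found for 2827 of these genes and for 3 members: Gimap5 (-0.25 ± 0.09, adjusted p = 0.182), Gimap7 (0.26 ± 0.11, adjusted p = 0.257) and Gimap1 (-0.16 ± 0.07, adjusted p = 0.267). Gimap1 stood at 371, 368, 379 and 320 CPM in libraries titled TIR1 and at 422, 406, 421 and 380 CPM in those titled WT. These did not overlap, but the share of all genes without overlap was not counted. Gimap7 stood at 107, 128, 101 and 91.3 CPM against 92.1, 79.5, 104 and 85.2 CPM. The 79.5 CPM was its lowest level in the series, across libraries counted with and without a mapping quality limit. Without WT replicate 4, Gimap5 passed (-0.31, adjusted p = 0.0263) where 11% of genes did. Summed markers of activated T cells were at 382 to 542 CPM in libraries titled TIR1 and 162 to 417 CPM in those titled WT, with overlap. Their part in the infant Gimap differences, and that of the disease the study reports in neonates, was not tested.

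**Figure D4:**
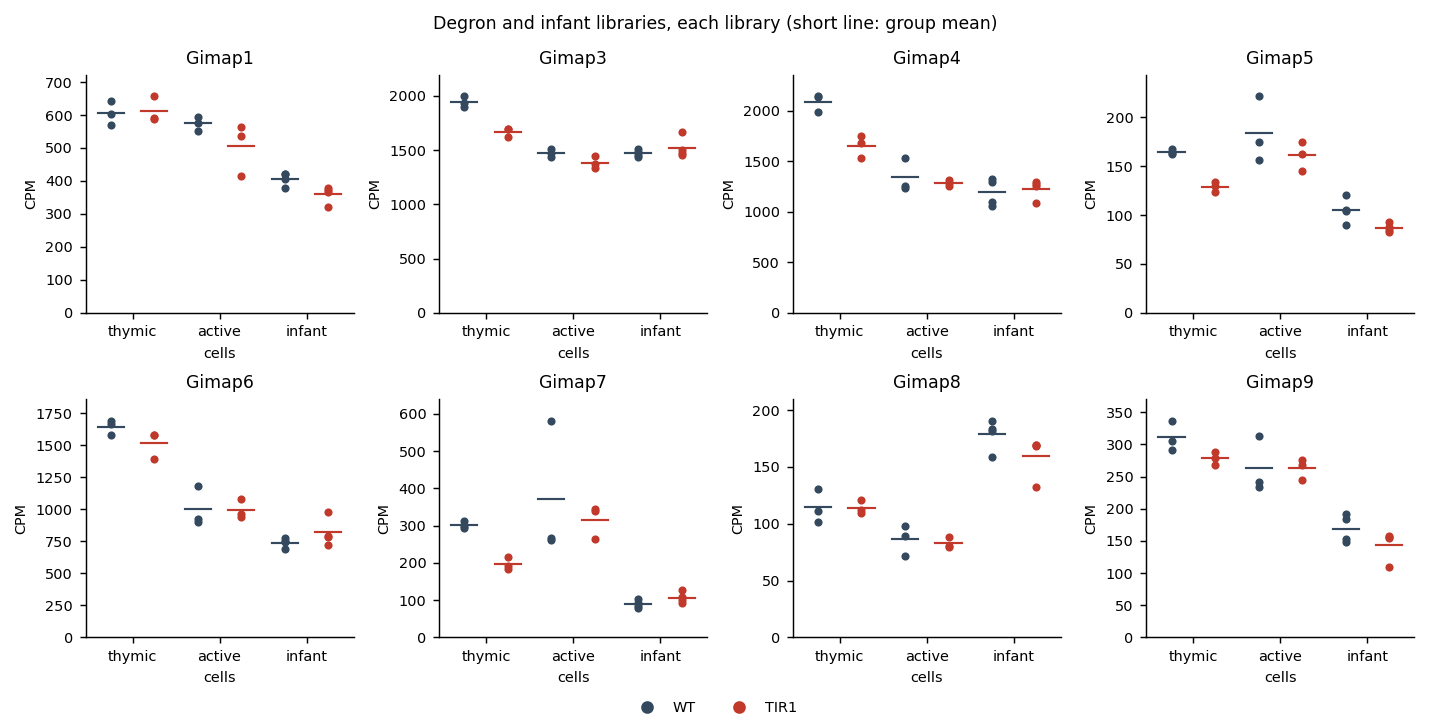
CPM (vertical axes, from 0) of each member in thymic, active and infant Treg libraries (horizontal axes); points are libraries and short lines group means, dark for WT and red for TIR1. In thymic cells Gimap7 lies at 184 to 215 CPM in TIR1 and 293 to 311 CPM in WT libraries, while active libraries overlap for every member.

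Among WT Treg cells, active cells held less Gimap6 (-0.62 ± 0.11, adjusted p = 0.00127), Gimap4 (-0.54 ± 0.10, adjusted p = 0.0014) and Gimap3 (-0.30 ± 0.07, adjusted p = 0.00509) than nascent thymic ones, where 23% of genes passed. Gimap6 stood at 1689, 1664 and 1581 CPM in thymic and 1180, 925 and 897 CPM in active WT libraries. These did not overlap, but the share of all genes without overlap was not counted. Gimap7 (0.40 ± 0.25) and Gimap5 (0.26 ± 0.13) did not pass. Without active WT replicate 1, the library that stood apart, the same 3 genes passed and Gimap9 joined them (-0.30, adjusted p = 0.0437). Tissue and state differ together in this contrast and cannot be told apart. The quiescence and homing list had 10 of 11 genes lower and 1 higher in the active cells.

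Across the means of the 22 KIKO and Foxp3GFP groups the members were unequally alike, as a description only, since all share their libraries. The log2 levels of Gimap3 and Gimap6 correlated most (Pearson r = 0.96), then Gimap4 and Gimap9 (0.92) and Gimap5 and Gimap7 (0.91), and Gimap1 and Gimap9 least (0.18). Of 12391 other genes, the 5 most like Gimap6 were Cd1d1 (0.97), Gimap1os (0.97), Ifit1bl1 (0.96), Gramd3 (0.96) and Gm3739 (0.95). The 5 most like the mean of the 8 members were Ikzf2 (0.95), which encodes Helios, Cd27 (0.94) and Tnfrsf9 (0.94), both TNF receptor family members, Art2b (0.94) and Il21r (0.93). Of the neighbouring features Gimap1os lay between 9.59 and 52.6 CPM, Gm28053 between 1.32 and 16.6 CPM, and Gm44226, 4833403J16Rik and Gm44262 at or under 4.62 CPM.

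Genes of the pathways in which GIMAP proteins take part were counted as lists. Of 12 autophagy genes, none passed in the active restoration contrast, in edgeR or DESeq2, and none had an unadjusted p under 0.05 (median -0.02). In the state difference none passed by either tool and 1 had an unadjusted p under 0.05, as had 1998 of 20790 genes. In active against resting minusFoxp3 cells 4 were higher and 1 lower, where 34.9% of all genes passed, with Gabarapl1, an ATG8-family gene, at 1.71 ± 0.13, Atg7 at 0.59 ± 0.10 and Ulk1 at 0.79 ± 0.15. Gsk3a and Gsk3b, the kinase genes tied to Gimap5, did not pass in any of the 14 contrasts in edgeR or DESeq2, with 1 unadjusted p under 0.05 among them, for Gsk3a in resting day 0 cells. Of 7 BCL2 family genes, which set the survival of T cells, 2 rose and 2 fell on restoration in active cells: Bcl2l1 (0.57 ± 0.09) and Mcl1 (0.28 ± 0.06), both pro-survival, rose, and pro-apoptotic Bcl2l11 (-0.84 ± 0.17) and pro-survival Bcl2 (-0.57 ± 0.11) fell, the last named here after its value was seen. In the same contrast 2 quiescence and homing genes rose, Lef1 (0.65 ± 0.12) and Foxo1 (0.37 ± 0.07), and Tcf7 fell (-0.84 ± 0.13). Lef1, like Gimap6 and Gimap7, also responded more in active than in resting cells (0.88 ± 0.15, adjusted p = 0.00392).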

How the data were processed

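RNA was measured in 64 libraries of sorted mouse Treg and Treg 'wannabe' cells in 28 groups. Per the file headers, the authors made the deposited counts with featureCounts v2.0.3 as whole read pairs per gene name (GENCODE release 30, GRCm39) from both-ends-mapped pairs, with no strand setting, dropping pairs that mapped to several places or genes. The 20 degradation libraries were also limited to primary, non-chimeric alignments of mapping quality 30 or more, which the other 44 were not, so levels are not compared across these sets by test. The study's methods name STAR for alignment and the submitters' processing notes name Bowtie2.

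The members and gene lists were chosen with earlier results of these data known. Named genes were the 8 members, the features between them, Foxp3, up to 3 called genes per list with the smallest adjusted p, and the 5 genes most like Gimap6 or the member mean (mean count of at least 100). CPM was computed as a gene's read pairs over the library total. Differences are log2 fold changes with SE from edgeR 4.0.16 (R 4.3.3), TMM scaling, the robust quasi-likelihood test and a mean count of at least 10, with Benjamini-Hochberg adjustment over all genes tested and a threshold of 0.05. Each p given as adjusted is from this test unless DESeq2 (1.42.0) is named. The test code was tested on simulated data. In 12 files the header's library name was not that of the attached sample, and the header name was used. The labels do not say what a shared replicate number means, so the reported fits carry no block for it. Alternatives were size factors, library totals only, no count filter, DESeq2, a replicate block, only the libraries compared, single days, no day 28 libraries, the recorded attachment, and 94 fits that each left out 1 library. Depth was 27753211 to 57419138 counted read pairs per library, with at least 1990 for each member.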

Additional observations from a re-analysis of the deposited data

Results flagged for a closer look

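Replicate 4 of the infant libraries titled TIR1 stood below its group for 2 members. Gimap8 was at 132.5 CPM where the other 3 libraries had 168.2 to 169.4 CPM, and Gimap9 was at 109 CPM where the others had 154.3 to 157.3 CPM. Of the 16 groups of 4 values examined in this way, these were the 2 whose lowest library lay outside Dixon's limit, which chance passes in about 1 in 20 groups.

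The Foxp3 restoration effect differed between active and resting cells for Gimap6 by 0.70 and for Gimap7 by 0.77 on the log2 scale, both by the test of the difference itself. At untreated day 0 both genes leaned the same way, and the part of this offset was not tested. The difference between Foxp3GFP Treg and minusFoxp3 cells also differed between the states by test, by 1.02 for Gimap3, 1.51 for Gimap6 and 1.11 for Gimap7. The latter contrast was chosen after seeing the data.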

How the results depend on the processing

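Of 132 counts of members called under an alternative, 120 stayed within 1.5 times the reported count. The 4 active restoration calls and the 2 state differences were lost or thinned with single days: from day 3 alone 0 members passed in either (0.274% and 0% of all genes did), and in the state difference 1 passed from day 7 (0.0289%) and 0 from day 14 (0.0433%). DESeq2 called 4 members in thymic degradation (1.12% of genes) and 1 in active against resting Foxp3GFP Treg cells (5.58%). Without the count filter 1 passed at resting day 0 (0.718%). With only the libraries compared, 0 passed in the resting Treg difference (1.39%), 1 in the state difference of the Treg difference (1.5%) and, with Gimap3 lost, 3 in active restoration (2.09%). The cause was not tested. Over all settings other than single days, the restoration state difference was 0.66 to 0.75 for Gimap6 and 0.70 to 0.84 for Gimap7. Leaving out 1 library gave 0 to 1 member in infants, 0 to 4 at resting day 0 and 0 to 1 in the resting Treg difference. A block for the replicate number gave 7 members in active against resting minusFoxp3 cells (37.5% of genes), 4 in active restoration (3.73%), 2 in its state difference (0.722%) and 4 in place of 3 in the state difference of the Treg difference (3.13%). Same-numbered degradation libraries correlated between -0.074 and 0.039. In the KIKO groups of 2 the values ran from -0.078 to 0.22 and 11 of 12 were positive, with active and resting minusFoxp3 cells at 0.22, 0.16, 0.22 and 0.10 on days 0, 3, 7 and 14.

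Under the recorded attachment the signs turned, by construction. Thymic degradation became -0.012 for Gimap1, 0.22 for Gimap3, 0.34 for Gimap4, 0.35 for Gimap5, 0.12 for Gimap6, 0.61 for Gimap7, 0.0087 for Gimap8 and 0.16 for Gimap9, and active degradation became 0.22, 0.12, 0.097, 0.23, 0.045, 0.27, 0.093 and 0.035 in that order. Gimap1 in active against thymic WT cells became -0.21, and -0.073 with library totals only. The other turned signs were small and outside the calls. In resting restoration Gimap1 was 0.0056 with size factors and with DESeq2, 0.0013 without the filter, 0.0052 without day 28 and 0.059 from day 14, Gimap3 was -0.014 with library totals and -0.21 from day 7, Gimap8 was 0.11 from day 3 and Gimap5 was -0.15 from day 7. From day 3 alone Gimap1 was -0.085 in active restoration, and the state difference was -0.086 for Gimap1, -0.018 for Gimap3, -0.13 for Gimap5 and -0.068 for Gimap8. From day 7 alone it was -0.019 for Gimap9. Gimap1 was -0.0022 in the resting Treg difference with library totals.

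Signs also turned in ranges over fits without 1 library. For thymic degradation they were Gimap1 -0.0388 to 0.0686, Gimap8 -0.0899 to 0.0981. For active degradation they were Gimap4 -0.15 to 0.0197, Gimap6 -0.12 to 0.10, Gimap7 -0.47 to 0.23, Gimap8 -0.20 to 0.0142, Gimap9 -0.12 to 0.12. For active against thymic WT cells they were Gimap1 -0.0266 to 0.0669, Gimap7 -0.0965 to 0.58. For resting day 0 they were Gimap1 -0.17 to 0.43, Gimap3 -0.18 to 0.19, Gimap5 -0.24 to 0.00349. For active day 0 they were Gimap3 -0.0618 to 0.20, Gimap1 -0.19 to 0.0514, Gimap6 -0.11 to 0.0617. For resting restoration they were Gimap3 -0.0203 to 0.0945, Gimap1 -0.0508 to 0.0873, Gimap8 -0.12 to 0.0134. For resting Treg difference they were Gimap1 -0.0813 to 0.11, Gimap3 -0.16 to 0.24, Gimap4 -0.0114 to 0.11, Gimap9 -0.20 to 0.18. For active against resting Foxp3GFP Treg cells they were Gimap4 -0.16 to 0.0446.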
